A study of Mus musculus with 16 samples.

Results

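A set of 10 genes of the NF-κB system was followed: the subunit genes Nfkb1, Nfkb2, Rel and Relb, the IκB genes Nfkbia, Nfkbie, Nfkbiz and Bcl3, and the ubiquitin-editing pair Tnfaip3 and Tnip1. They were chosen by name, as 10 of the 49315 genes counted, and all 10 passed the filter on low counts in all 16 comparisons. The cells were primary mouse neutrophils sorted as positive for Ly6G, CD11b and CD45.2, and their RNA was sequenced after full-length cDNA amplification. Mice were wild type (WT) or labelled as knockouts of integrin αD (αD KO), both from the Jackson Laboratory, and neutrophils came from blood or lung of naive mice (0h) or of mice 12h after cecal ligation and puncture (CLP), a surgery in which gut bacteria leak into the abdomen and cause sepsis. CLP was done in males aged 8 to 12 weeks. Each of the 8 groups of genotype, tissue and time had 2 deposited samples and 3 libraries, because the first sample carried 2 count files. These are called libraries 1a, 1b and 2, and values below are given in that order. The study describes the sequencing as done in triplicate, and the sources used here do not say if 1a and 1b are separate mice, so p-values measure the spread between libraries, which may be partly technical.

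NF-κB is a family of dimeric transcription factors that IκB proteins hold inactive in the cytoplasm. Signals from Toll-like, interleukin-1 and TNF receptors lead to the breakdown of IκB and let the dimers enter the nucleus, where among their best known targets are the genes of their own inhibitors. In neutrophils this pathway is known for driving cytokine and chemokine genes and for prolonging survival in inflamed tissue.

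Promoter sequences were at hand for 7 of the 10 genes in the RefSeq table of GRCm38.p6, as the 250 bases before each listed start. At least 1 match to the κB consensus motif, searched on both strands, lay in such a window of 6 of the 7 genes (Nfkbia, Nfkbie, Nfkb2, Rel, Tnfaip3 and Tnip1) and in none of Bcl3. Among the 27025 genes of the table, 4.46% had a match. The windows of 4 members with different roles are shown, 5′ to 3′ on the strand of the gene, with the matches in capitals. Matches that overlap are 1 run of capitals.
Nfkbia, chr12:55492648-55492897, minus strand: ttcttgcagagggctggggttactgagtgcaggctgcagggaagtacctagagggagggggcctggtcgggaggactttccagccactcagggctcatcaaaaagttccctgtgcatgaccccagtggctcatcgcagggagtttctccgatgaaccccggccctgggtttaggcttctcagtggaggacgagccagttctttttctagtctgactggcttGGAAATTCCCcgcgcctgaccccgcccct
Tnip1, chr11:54962941-54963190, minus strand: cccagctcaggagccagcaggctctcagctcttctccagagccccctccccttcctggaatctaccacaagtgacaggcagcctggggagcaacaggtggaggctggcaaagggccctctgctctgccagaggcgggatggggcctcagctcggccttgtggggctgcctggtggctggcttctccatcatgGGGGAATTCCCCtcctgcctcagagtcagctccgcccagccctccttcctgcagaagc
Nfkb2, chr19:46304487-46304736, plus strand: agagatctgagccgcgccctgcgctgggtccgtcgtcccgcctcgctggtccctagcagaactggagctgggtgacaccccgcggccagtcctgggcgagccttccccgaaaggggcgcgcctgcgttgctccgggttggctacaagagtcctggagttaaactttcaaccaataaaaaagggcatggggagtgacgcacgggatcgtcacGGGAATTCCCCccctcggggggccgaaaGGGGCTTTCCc
Rel, chr11:23770970-23771219, minus strand: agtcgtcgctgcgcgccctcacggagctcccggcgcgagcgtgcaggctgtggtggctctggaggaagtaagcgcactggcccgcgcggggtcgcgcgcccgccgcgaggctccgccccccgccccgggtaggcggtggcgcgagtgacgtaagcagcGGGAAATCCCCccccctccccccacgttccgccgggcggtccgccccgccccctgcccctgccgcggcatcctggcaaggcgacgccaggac
The Nfkbia match began 29 bases before the start, and the Nfkb2 window held 2 separate matches, beginning 39 and 11 bases before it. Tnfaip3 held 2 as well, GGGACACCCC beginning 125 and GGAAATCCCC beginning 12 bases before the start. Of all genes in the table, 0.17% had 2 or more. A match is a run of letters and was not tested as a binding site.

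Totals were 5753476 to 29984954 counts per library. Library 1b had the most genes with counts in each of the 8 groups. Over the 8 libraries 1b these were 29162 to 38844 genes and over the other 16 libraries 17132 to 32666, and TMM scaling factors were 0.888 to 1.93 and 0.557 to 1.16, so both ranges overlapped. All 12 neutrophil markers were found in every library, with a summed level of 29619 to 332688 CPM (counts scaled to a common library size). In WT blood that sum was 29619 to 51091 CPM at 0h and 167507 to 332688 CPM at 12h, in αD KO blood 35756 to 78030 and 172823 to 220206 CPM, in WT lung 38130 to 55094 and 129281 to 158922 CPM, and in αD KO lung 43417 to 140307 and 61707 to 101902 CPM. B cell markers, a list of 7, summed to 420 to 782 CPM in WT lung 0h and 35.2 to 84.98 CPM in WT lung 12h. In αD KO lung they were 423, 279 and 54.0 CPM at 0h and 519.7, 44.1 and 520.1 CPM at 12h. In blood the same list summed to 267 to 1212 CPM at 0h and 42.0 to 231 CPM at 12h in WT, and to 321 to 1351 CPM and 37.5 to 136 CPM under the αD KO label. Platelet markers, a list of 6, summed to 41.0 to 133 CPM at 0h and 5.29 to 30.1 CPM at 12h in WT blood, and to 25.3 to 673 CPM and 5.64 to 44.0 CPM in αD KO blood. Eosinophil markers, a list of 4, summed to 28.5 to 68.8 CPM and 5.78 to 8.01 CPM in WT blood, 36.4 to 54.9 CPM and 1.64 to 3.76 CPM in αD KO blood, and 55.9 to 125 CPM and 2.96 to 15.4 CPM in WT lung. Eosinophil markers in αD KO lung were 75.1, 59.7 and 3.22 CPM at 0h and 58.2, 6.33 and 90.2 CPM at 12h. T and NK cell markers, a list of 10, summed to 364 CPM in library 2 of αD KO blood 0h. In the other libraries that list summed to 8.74 to 30.9 CPM. The part of these shifts in the results below was not tested. Itgad, the gene of αD, ran from 12.5 to 102 CPM over the 12 αD KO libraries and from 0.0583 to 3.67 CPM over the 12 WT libraries. It was thus higher under the knockout label, against the direction that loss of the transcript would give, and counts per gene, which pool all exons, cannot show whether such reads come from a disrupted allele. Genotypes below are therefore those of the labels. Each library was also placed between the mean of WT lung 0h, set at 0, and that of WT lung 12h, set at 1, with 1303 genes that differed between those groups and are neither members nor pathway genes. Under the αD KO lung labels, library 2 of 0h lay at 1.02 while 12h libraries 1a and 2 lay at 0.0831 and 0.186, so these 3 libraries went against their time labels on this axis. Library 1b labelled WT lung 12h lay at 0.629, below 1.24 and 1.06 of libraries 1a and 2.

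**Figure D1:**
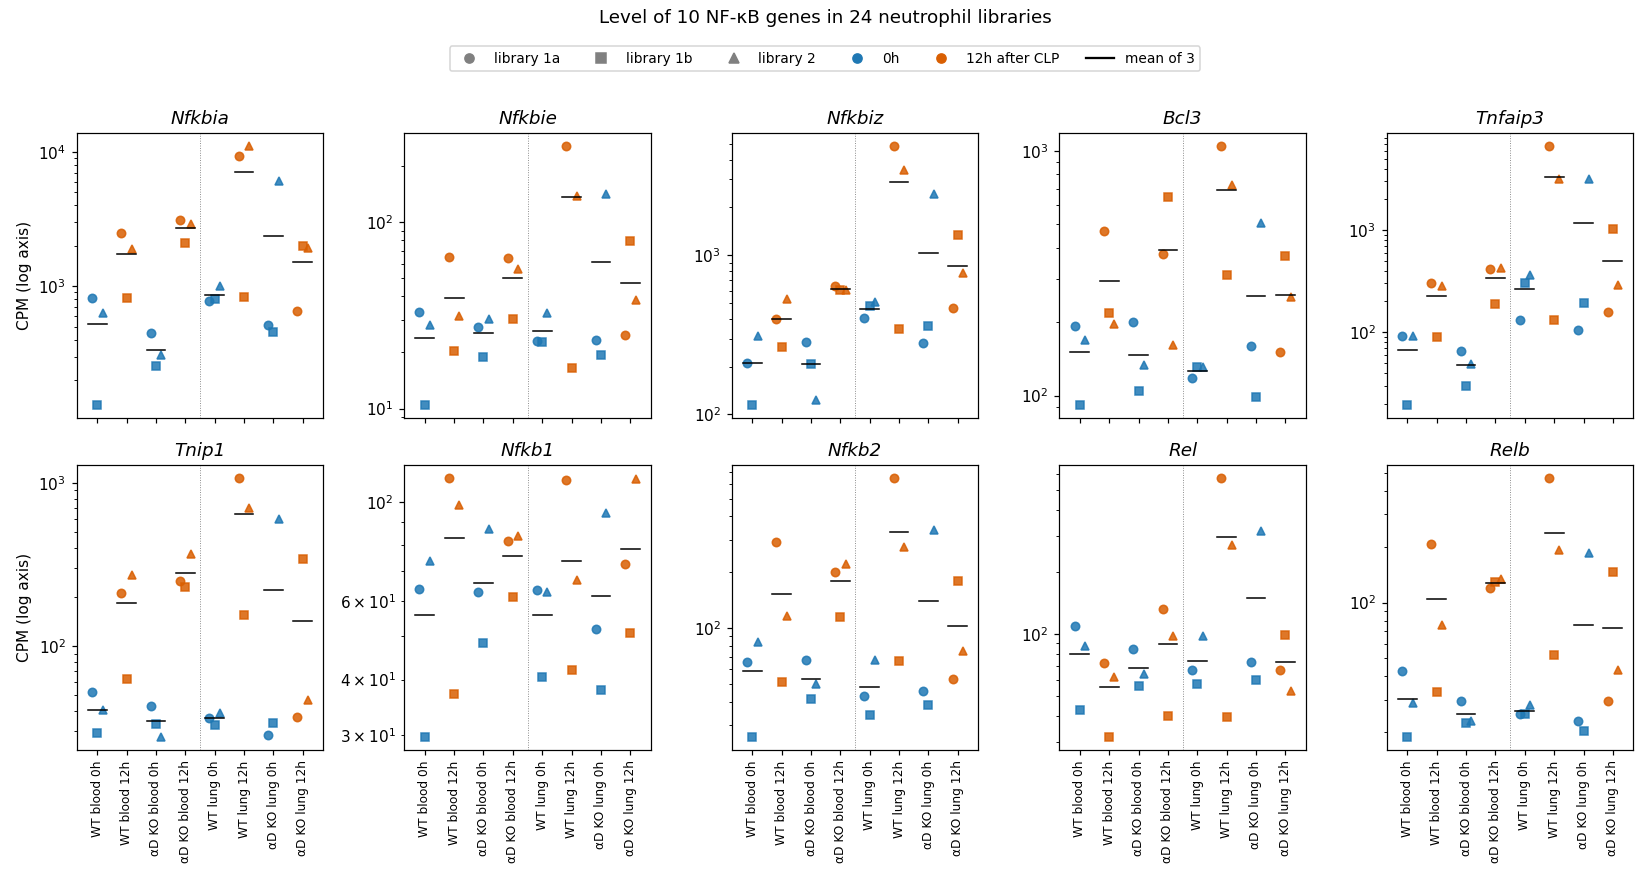
Level of each gene in CPM (log axis, 1 scale for all libraries) by group of genotype, tissue and time. Points are libraries (circle 1a, square 1b, triangle 2), bars are means of 3, blue is 0h and orange 12h after CLP. In WT lung at 12h, libraries 1a and 2 lie far above the 0h libraries for all genes but Nfkb1, while library 1b lies above all 3 of them for 3 genes (Relb, Tnip1 and Bcl3). Library 2 of αD KO lung 0h lies with the high libraries.

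The first question was whether the genes changed between 0h and 12h. A gene was called at an adjusted p under 0.05 (edgeR's quasi-likelihood test, Benjamini-Hochberg over all genes tested) with a log2 fold change beyond 1 in either direction. In WT blood 1 member rose, Tnip1, and none fell. Of the 14625 genes tested there, 7.75% were called higher and 5.75% lower, so 1 of 10 was near the background. In αD KO blood 5 members rose (Nfkbia, Nfkb2, Relb, Tnfaip3 and Tnip1) where 3.75% of 14156 genes were called higher and 4.99% lower. In WT lung 4 rose (Nfkb2, Relb, Tnip1 and Bcl3) where 5.24% of 14859 genes were called higher and 3.78% lower. In αD KO lung 0 members and 0 of 17939 genes (0%) were called, and 0 members and 72 genes had a p under 0.05 before adjustment. DESeq2 called 0 members there too, and 0% of the genes.

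The median log2 fold change of the members was 0.97 in WT blood, 1.44 in αD KO blood, 2.52 in WT lung and −0.17 in αD KO lung. The medians over all genes tested were −0.15, −0.14, 0.03 and −0.05. With the library number as a replicate block, the count in WT blood went from 1 to 4, adding Nfkbia, Relb and Tnfaip3, with 10.2% of genes called higher. With the same block it went from 5 to 6 in αD KO blood, adding Nfkbiz (4.66% of genes called higher), and from 4 to 3 in WT lung, where Nfkb2 was lost (3.54%). In WT lung 9 members were called without library 1b of 12h, all but Nfkb1, and 12.5% of genes were called higher. None was called there without library 1a or 2 of 12h or of 0h, where 0% to 0.0768% of all genes were called higher. In the fit without library 1b of 0h 2 were called (2.46% of genes called higher). With all 8 groups in 1 fit 0 members were called in WT blood (2.84% of genes called higher) or αD KO blood (0.0442%) and 2 in WT lung, Tnip1 and Bcl3 (0.906%). The count in αD KO blood was 3 without library 2 of 12h, where 0.408% of genes were called higher, and 2 without library 1a of 0h, where 0.142% were. In bulk samples, fewer cells of a type and less RNA per cell cannot be told apart.

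**Figure D2:**
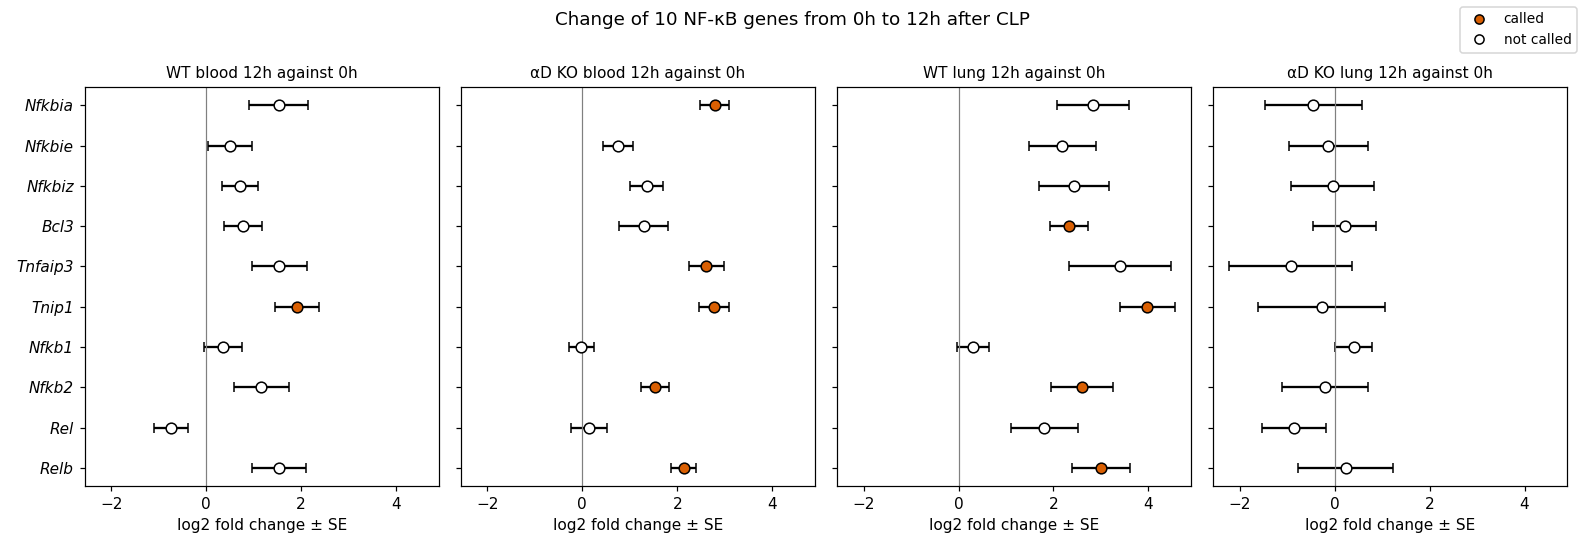
Log2 fold change from 0h to 12h after CLP with its standard error, from edgeR, for each gene (rows) in the 4 groups of genotype and tissue (panels). Filled points were called. The values reach 3.98 for Tnip1 in WT lung, and the 10 values in αD KO lung lie between −0.93 and 0.40, with no filled point.

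Nfkbia encodes IκBα, the main cytoplasmic inhibitor, which is remade within hours after NF-κB activation. It was the most abundant member per length, with a median over all libraries of 524 CPM per kilobase of exon. In WT blood it was 813, 131 and 637 CPM at 0h and 2476, 821 and 1886 CPM at 12h. Every 12h library lay above every 0h library, and Nfkbia, Tnip1 and Bcl3 were the 3 members so separated, against 22.1% of all genes. The log2 fold change of 1.52 (SE 0.63) was not called (adjusted p = 0.155) and was called with the replicate block (adjusted p = 0.0182). Under the αD KO label, Nfkbia in blood went from 447, 256 and 307 CPM to 3100, 2082 and 2903 CPM. That rise was called, with a log2 fold change of 2.79 (SE 0.30, adjusted p = 0.00345), and it held with each of the 6 libraries left out in turn, but not with all 8 groups in 1 fit (adjusted p = 0.116).

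In WT lung Nfkbia was 774, 808 and 1009 CPM at 0h and 9337, 831 and 10940 CPM at 12h. Libraries 1a and 2 of 12h were above all 0h libraries and library 1b was among them. The log2 fold change was 2.83 (SE 0.77, adjusted p = 0.0562), and without library 1b of 12h it was 3.22 (SE 0.31, adjusted p = 0.000663). In αD KO lung it was 514, 455 and 6107 CPM at 0h and 660, 1986 and 1912 CPM at 12h. The groups overlapped because library 2 of 0h held the highest value (log2 fold change −0.45, SE 1.02, adjusted p = 1).

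Nfkbie encodes IκBε, a second cytoplasmic inhibitor. Its level in WT blood was 33.0, 10.4 and 28.1 CPM at 0h and 65.0, 20.4 and 31.5 CPM at 12h, with overlap. In αD KO blood it was 27.5, 18.9 and 30.3 CPM and then 64.2, 30.2 and 56.2 CPM, where 12h library 1b lay just below 0h library 2. Neither change was called (log2 fold change 0.50, SE 0.46 and 0.75, SE 0.31). In WT lung Nfkbie was 23.1, 22.7 and 32.6 CPM at 0h and 255, 16.5 and 138 CPM at 12h. Library 1b of 12h was the lowest of the 6, and the log2 fold change of 2.19 (SE 0.70, adjusted p = 0.0893) was called when it was left out (2.56, SE 0.31, adjusted p = 0.00139). In αD KO lung the values were 23.2, 19.3 and 141 CPM at 0h and 25.0, 79.0 and 38.2 CPM at 12h.

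Nfkbiz encodes IκBζ, a nuclear IκB that works with NF-κB on secondary response genes. WT blood held 210, 114 and 311 CPM at 0h and 395, 264 and 529 CPM at 12h, and the groups overlapped (log2 fold change 0.72, SE 0.38). Blood libraries labelled αD KO went from 286, 208 and 124 CPM to 639, 607 and 607 CPM. These groups were apart, but the log2 fold change of 1.35 (SE 0.36) missed the threshold (adjusted p = 0.0518) and was called with the replicate block (adjusted p = 0.031), but not with the files of sample 1 summed (0.0932) or libraries 1a and 2 alone (0.0705). In WT lung Nfkbiz was 402, 480 and 506 CPM at 0h and 4835, 344 and 3426 CPM at 12h. Here too library 1b of 12h was the lowest of the 6 (log2 fold change 2.43, SE 0.74, adjusted p = 0.0772, and 2.80, SE 0.31 without it). Lung libraries labelled αD KO held 282, 360 and 2439 CPM at 0h and 468, 1338 and 769 CPM at 12h.

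Bcl3 encodes a nuclear IκB that binds p50 and p52 homodimers and can activate or repress. In WT blood it was 192, 91.2 and 168 CPM at 0h and 470.1, 218 and 197 CPM at 12h. The groups did not overlap, though the lowest 12h value was close to the highest 0h value, and the change was not called (log2 fold change 0.78, SE 0.40, adjusted p = 0.252). In blood of αD KO mice it was 199.8, 104 and 134 CPM and then 379, 645 and 161 CPM, with overlap (log2 fold change 1.29, SE 0.51, adjusted p = 0.148). In WT lung Bcl3 went from 118, 131 and 130.4 CPM to 1042, 312 and 726 CPM. All 3 libraries of 12h, library 1b included, were above those of 0h, and the rise was called (log2 fold change 2.33, SE 0.41, adjusted p = 0.017). In lung of αD KO mice it was 159, 98.3 and 505 CPM at 0h and 150.1, 370.4 and 252 CPM at 12h.

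Tnfaip3 encodes A20, an enzyme that edits ubiquitin chains on signaling proteins and ends NF-κB activation. Its highest library over its lowest gave the largest ratio among the members, 344, from 19.2 to 6608 CPM over the 24 libraries. In WT blood it was 92.1, 19.2 and 91.3 CPM at 0h and 302, 89.7 and 286 CPM at 12h, where library 1b of 12h fell just under libraries 1a and 2 of 0h. The log2 fold change of 1.54 (SE 0.58, adjusted p = 0.125) was called with the replicate block (adjusted p = 0.0085). Under the αD KO label in blood it rose from 65.9, 29.6 and 49.1 CPM to 412, 189 and 425 CPM (log2 fold change 2.61, SE 0.36, adjusted p = 0.00693). The libraries of these 2 times were apart, and the call was lost without library 1a of 0h (adjusted p = 0.0601) or library 2 of 12h (0.0532).

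In WT lung Tnfaip3 was 131, 305 and 361 CPM at 0h and 6608, 131 and 3186 CPM at 12h. Library 1b of 12h lay next to the lowest 0h library, and the log2 fold change of 3.41 had an SE of 1.07 (adjusted p = 0.0845). Without that library it was 3.82 (SE 0.54, adjusted p = 0.00253). Under the αD KO label in lung Tnfaip3 was 104, 194 and 3199.9 CPM at 0h and 159, 1034 and 290.2 CPM at 12h. DESeq2 gave no adjusted p for Tnfaip3 and Tnip1 in that comparison.

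Tnip1 encodes ABIN1, an adaptor that brings A20 to ubiquitin chains. It was called in 3 of the 4 comparisons of times. In WT blood it went from 52.3, 29.3 and 40.6 CPM to 211, 63.2 and 274 CPM, with no overlap (log2 fold change 1.91, SE 0.46, adjusted p = 0.0333). That call was lost without library 1a or 2 of either time, where 0.00999% to 0.514% of all genes were called higher. Among blood libraries labelled αD KO it went from 43.2, 33.2 and 27.8 CPM to 248.7, 229 and 367 CPM (log2 fold change 2.78, SE 0.31, adjusted p = 0.00372), and the rise held with each of the 6 libraries left out, but not with all 8 groups in 1 fit (adjusted p = 0.134).

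In WT lung Tnip1 was 36.4, 33.1 and 39.1 CPM at 0h and 1073, 156 and 700.1 CPM at 12h. All 3 libraries of 12h were above all of 0h, and 12.2% of the genes tested were so separated upward, as were Tnip1, Bcl3 and Relb among the members. The log2 fold change of 3.98 (SE 0.59, adjusted p = 0.0101) was the largest among the members in any comparison of times. Among lung libraries labelled αD KO it was 28.6, 33.6 and 597 CPM at 0h and 36.8, 343 and 47.0 CPM at 12h, so 1 library of each time lay far above the other two.

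Nfkb1 encodes p105, the precursor of the subunit p50. It moved least, between 29.8 and 113 CPM over all 24 libraries. In WT blood it was 63.9, 29.8 and 73.7 CPM at 0h and 113, 37.1 and 98.2 CPM at 12h. For αD KO mice in blood it was 62.9, 48.2 and 86.8 CPM and then 81.5, 61.2 and 83.8 CPM, and the groups overlapped in both genotypes. WT lung held 63.6, 40.5 and 62.9 CPM at 0h and 112, 42.0 and 66.8 CPM at 12h, and αD KO lung held 52.0, 38.0 and 94.2 CPM and then 72.5, 50.9 and 112 CPM. The 4 log2 fold changes lay between −0.02 and 0.40 and none was called. Library 1b was the lowest of its group in all 8 groups, and in 6 without TMM scaling. With that scaling it was the lowest in 4 to 7 groups for each of the other members. Over all genes, 25.2% to 33.6% were lowest in library 1b of a group.

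Nfkb2 encodes p100, which holds RelB in the cytoplasm until it is processed to p52. In WT blood it was 65.6, 25.8 and 83.5 CPM at 0h and 292, 51.1 and 116 CPM at 12h, with overlap (log2 fold change 1.16, SE 0.58, adjusted p = 0.235). Under the αD KO label in blood it rose from 67.2, 41.4 and 49.5 CPM to 200.04, 114 and 220.4 CPM (log2 fold change 1.53, SE 0.29, adjusted p = 0.0209), and the libraries did not overlap. That call held without library 1b of 12h and was lost without any 1 of the other 5 libraries (adjusted p = 0.0633 to 0.13). In WT lung Nfkb2 went from 43.1, 33.7 and 67.1 CPM to 647, 65.9 and 273 CPM. The rise was called (log2 fold change 2.60, SE 0.66, adjusted p = 0.046) although library 1b of 12h lay under the highest 0h library, and it was lost with the replicate block (adjusted p = 0.0582). For αD KO mice in lung it was 45.4, 38.3 and 337 CPM at 0h and 53.1, 179 and 74.9 CPM at 12h.

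Relb encodes the partner of p52 in the non-canonical pathway. WT blood held 42.7, 18.9 and 28.9 CPM at 0h and 206, 32.9 and 75.8 CPM at 12h (log2 fold change 1.54, SE 0.57, adjusted p = 0.119, and 0.0332 with the replicate block). Only library 1b of 12h overlapped with the 0h libraries. Among blood libraries labelled αD KO it rose from 29.5, 22.3 and 23.1 CPM to 120.3, 129 and 133 CPM, with no overlap (log2 fold change 2.13, SE 0.26, adjusted p = 0.00484), a call that was lost without library 1a of 0h (0.0548). The 6 members whose libraries were apart in αD KO blood were Nfkbia, Nfkbiz, Nfkb2, Relb, Tnfaip3 and Tnip1, and 17.7% of all genes tested were apart upward. In WT lung Relb rose from 25.1, 25.2 and 27.9 CPM to 470.1, 52.0 and 191 CPM (log2 fold change 3.01, SE 0.62, adjusted p = 0.026). Under the αD KO label in lung it was 23.0, 20.2 and 184 CPM at 0h and 29.5, 146 and 43.6 CPM at 12h.

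Rel encodes c-Rel, a subunit with a transactivation domain that is prominent in leukocytes. In WT blood Rel was lower at 12h in each number, with 110, 42.6 and 87.2 CPM at 0h and 72.7, 31.6 and 61.9 CPM at 12h. The groups overlapped and the log2 fold change of −0.73 (SE 0.36, adjusted p = 0.226) was not called. For αD KO mice in blood it was 84.9, 56.1 and 64.0 CPM and then 133, 39.9 and 97.3 CPM (log2 fold change 0.15, SE 0.38). In WT lung Rel was 66.7, 57.3 and 97.7 CPM at 0h and 576, 39.5 and 271 CPM at 12h. Here libraries 1a and 2 of 12h were above the 0h libraries and library 1b was below them (log2 fold change 1.81, SE 0.70, adjusted p = 0.145, and 2.18, SE 0.36 without it). Among lung libraries labelled αD KO it was 72.9, 59.7 and 318 CPM at 0h and 66.9, 99.3 and 52.9 CPM at 12h.

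For αD KO lung the fold changes depended on single libraries. Without library 2 of 0h, the 10 log2 fold changes lay between 0.19 (Rel) and 2.26 (Tnip1), 3 members and 245 of 21680 genes (1.13%) had an unadjusted p under 0.05 and no member was called. Without library 1b of 12h, which lay at 0.821 on the axis, they lay between −2.37 (Tnip1) and 0.59 (Nfkb1). Without library 1a or 2 of 12h they lay between −0.96 and 0.41 and between −0.90 and 0.27, against −0.93 to 0.40 with all 6 libraries. In these 3 alternatives 0 members had an unadjusted p under 0.05, beside 1.52% (without 1b), 0.115% (without 1a) and 0.248% (without 2) of all genes. Without library 2 of 0h and library 1a of 12h, an alternative chosen after seeing the data, they lay between 0.26 and 2.72, 7 members and 257 of 20649 genes (1.24%) had an unadjusted p under 0.05 and again no member was called.

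**Figure D3:**
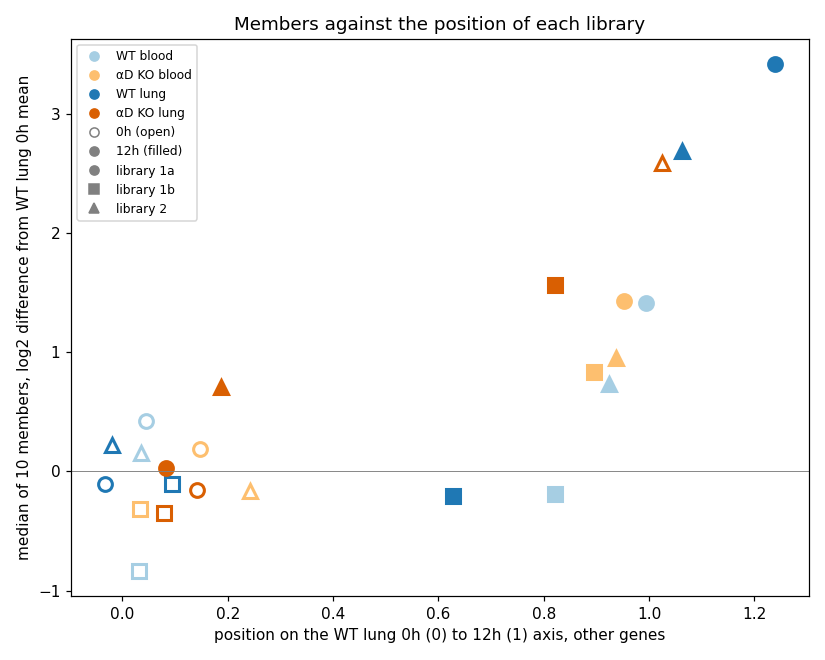
Median over the 10 members of the log2 difference from their mean in WT lung 0h (vertical axis), against the position of each library on the axis from WT lung 0h (0) to 12h (1) of 1303 other genes. Open symbols are 0h and filled ones 12h, colors are genotype and tissue, and shapes are libraries. Library 2 of αD KO lung 0h lies at 1.02 and 2.59, next to the WT lung 12h libraries 1a and 2, and library 1b of WT lung 12h lies at 0.629 but at −0.21 for the members. The 1303 genes were chosen with that library 1b included.

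The members did not follow that axis alike in all libraries. Its 1303 genes were called with library 1b of WT lung 12h included, while the members were chosen by name. Part of the gap in that library can come from this choice, which was not tested. Library 1b of WT lung 12h and library 1b of WT blood 12h lay at 0.629 and 0.821, yet the median of the 10 members was 0.21 and 0.19 log2 units below WT lung 0h in them (−0.21 and −0.19). Libraries 1a and 2 of WT lung 12h had members 3.42 and 2.69 log2 units above it. Blood libraries of 12h other than WT 1b lay at 0.895 to 0.995 and their members at 0.74 to 1.43. In library 1b of αD KO lung 12h the median was 1.56. Immediate early and heat shock genes, a list of 10, summed to 31713, 7281 and 40717 CPM in WT lung 12h, so library 1b was low there too. Their part in the result was not tested.

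Other genes of the pathway were taken from 5 lists of 82 genes. In WT blood 14 of the 79 tested rose and 8 fell, in αD KO blood 18 of 79 rose and 6 fell, and in WT lung 16 of 81 rose and 1 fell. None of the 80 tested in αD KO lung was called, and 0 had an unadjusted p under 0.05. With the replicate block 19 rose and 8 fell in WT blood, 20 rose and 8 fell in αD KO blood, and 8 rose and 1 fell in WT lung, where target genes that rose went from 8 to 3. Beside the counts without the block stand the shares of all genes given above, 7.75% called higher and 5.75% lower in WT blood, 3.75% and 4.99% in αD KO blood, and 5.24% and 3.78% in WT lung. With the block these shares were 10.2% and 8.22%, 4.66% and 6.08%, and 3.54% and 2.47%. The lists were chosen with earlier results known, and they are described by counts with no test.

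Among receptors and ligand sensors, a list of 10 genes, 3 rose in WT blood, 4 in αD KO blood and 2 in WT lung, and none fell. Il1r2, the decoy receptor for interleukin-1, rose in each, with log2 fold changes of 2.67, 3.87 and 3.32. Cd14, the co-receptor that hands lipopolysaccharide to TLR4, rose by 3.39, 4.41 and 4.97 log2 units. In WT lung Cd14 went from 249.05, 123 and 515 CPM to 14769, 1256 and 15457 CPM, so all 3 libraries of 12h were above those of 0h. The list's median was 0.14, 0.20 and 0.91.

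Of 20 adaptors, 1 rose and 1 fell in WT blood, 2 rose and 2 fell in αD KO blood, and 2 rose in WT lung, each within 2 genes of what those shares come to. Irak3, which encodes an inactive kinase relative that restrains Toll-like receptor signaling, rose in αD KO blood (log2 fold change 3.0) and WT lung (3.58). With the replicate block Irak3 was called in WT blood too (adjusted p = 0.00573) and Tradd, an adaptor of TNF receptors, was lost in WT lung (0.0683). Traf5, a TNF receptor adaptor, fell in blood of both genotypes (−2.61 in WT and −2.52 in αD KO). Of 11 kinases, 2 rose and 1 fell in WT blood, 2 rose in αD KO blood and 1 rose in WT lung, and the block added Tbk1 in WT blood (adjusted p = 0.0436). Ikbke, which encodes the IκB kinase relative IKKε, had the highest fold change of the pathway genes tested in each of the 3 comparisons. Its log2 fold changes were 6.97 (SE 0.98, adjusted p = 0.00589) in WT blood, 5.66 (SE 0.65) in αD KO blood and 7.77 (SE 0.84) in WT lung.

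In WT blood Ikbke went from 4.07, 1.90 and 4.003 CPM to 617, 53.8 and 861 CPM. Each 12h library was above each 0h library, and the same held in WT lung, with 7.62, 3.46 and 8.22 CPM at 0h and 2698, 313 and 1718 CPM at 12h. The 16 other subunits and inhibitors moved in both directions. Of these 0 rose and 3 fell in WT blood (Tnip2, Nfkbid and Peli1). Blood of αD KO mice had 3 that rose (Nfkbib, Zc3h12a and Birc3) and 1 that fell (Tnip2), and in WT lung 3 rose (Nfkbib, Zc3h12a and Otulin) and 1 fell (Tnip2). With the replicate block Nfkbib and Birc3 were called higher in WT blood (adjusted p = 0.0134 and 0.0398), Nfkbid and Peli1 were called lower in αD KO blood (0.0202 and 0.0425), and Zc3h12a and Otulin were lost in WT lung (0.072 and 0.0526). These small counts were named after their values were seen.

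Of 25 target genes, 22 were tested in blood and 24 in WT lung. In WT blood 8 rose and 3 fell, in αD KO blood 7 rose and 3 fell, and in WT lung 8 rose and none fell. The list's medians were 1.30, 0.98 and 2.61, against −0.15, −0.14 and 0.03 over all genes. Cxcl3, a neutrophil chemoattractant, rose in all 3 (log2 fold changes 4.71, 5.60 and 7.49), as did Sod2, the mitochondrial superoxide dismutase (3.97, 3.79 and 4.95), and Traf1 (3.48, 3.20 and 5.71). Il1a rose in WT blood (5.29) and WT lung (4.40), and so did Cxcl1 (3.78 and 5.13). Tnf was called in all 3 and was among the 12 largest in αD KO blood (2.68) and WT lung (4.66). Cxcl2 rose in αD KO blood (3.01) and WT lung (3.37), and Ier3 in WT lung (3.41). With the replicate block, calls were lost for Il1a in WT blood (adjusted p = 0.0625) and, in WT lung, for Il1a (0.0705), Traf1 (0.0567), Cxcl1 (0.0646), Cxcl2 (0.0905) and Ier3 (0.112). It added Cxcl2 and Clec4e in WT blood (0.0254 and 0.033) and Icam1 and Ier3 in αD KO blood (0.0157 and 0.0409).

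The target genes that fell did so in blood. Ptgs2, which encodes cyclooxygenase-2, fell from 1194, 187 and 1045 CPM to 10.3, 14.8 and 39.5 CPM in WT blood (log2 fold change −5.39, SE 0.83) and had a log2 fold change of −4.68 in αD KO blood. Il1b, the gene of interleukin-1β, had a log2 fold change of −2.91 in WT blood. Nlrp3, the inflammasome sensor, had −2.76 in WT and −2.55 in αD KO blood. The immediate early and heat shock genes moved with them, as 4 of 10 fell in WT blood and 3 in αD KO blood, with medians of −2.22 and −1.73, and 1 fell in WT lung. With the block 5 fell in blood of each genotype. Their part in the result was not tested.

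The second question was whether lung and blood neutrophils differed. Lung structural markers, a list of 10, summed to 48.8 to 146 CPM in WT lung 0h and 83.5 to 341 CPM in WT lung 12h, against 25.0 to 311 and 18.8 to 21.4 CPM in WT blood. For αD KO the sums were 110 to 904 and 44.5 to 196 CPM in lung, against 20.3 to 37.3 and 9.32 to 30.2 CPM in blood. Erythroid markers, a list of 5, were 25.6 to 8109 CPM in blood and 83.1 to 3102 CPM in lung. The part of either list in the results was not tested. At 0h, 0 members were called in either genotype, and 0% of 15967 genes in WT and 0% of 19000 in αD KO. At an unadjusted p under 0.05 there were 2 members and 406 genes in WT and 3 members and 553 genes in αD KO. DESeq2 called 1 member in each, Nfkbiz in WT (0.0994% of genes) and Tnfaip3 in αD KO (0.263%). In WT, Nfkbiz and Tnfaip3 were higher in every lung library than in any blood library, and 3.53% of the genes tested were apart upward. Tnfaip3 was 2.03 log2 units higher in lung (SE 0.57, adjusted p = 0.999) and Nfkbiz 1.11 (SE 0.29). In αD KO, Nfkbia and Tnfaip3 were apart upward, as were 3.11% of genes. The Tnfaip3 log2 difference of 4.52 (SE 1.30) was 1.77 without library 2 of lung 0h, which is one of the libraries against their time label.

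**Figure D4:**
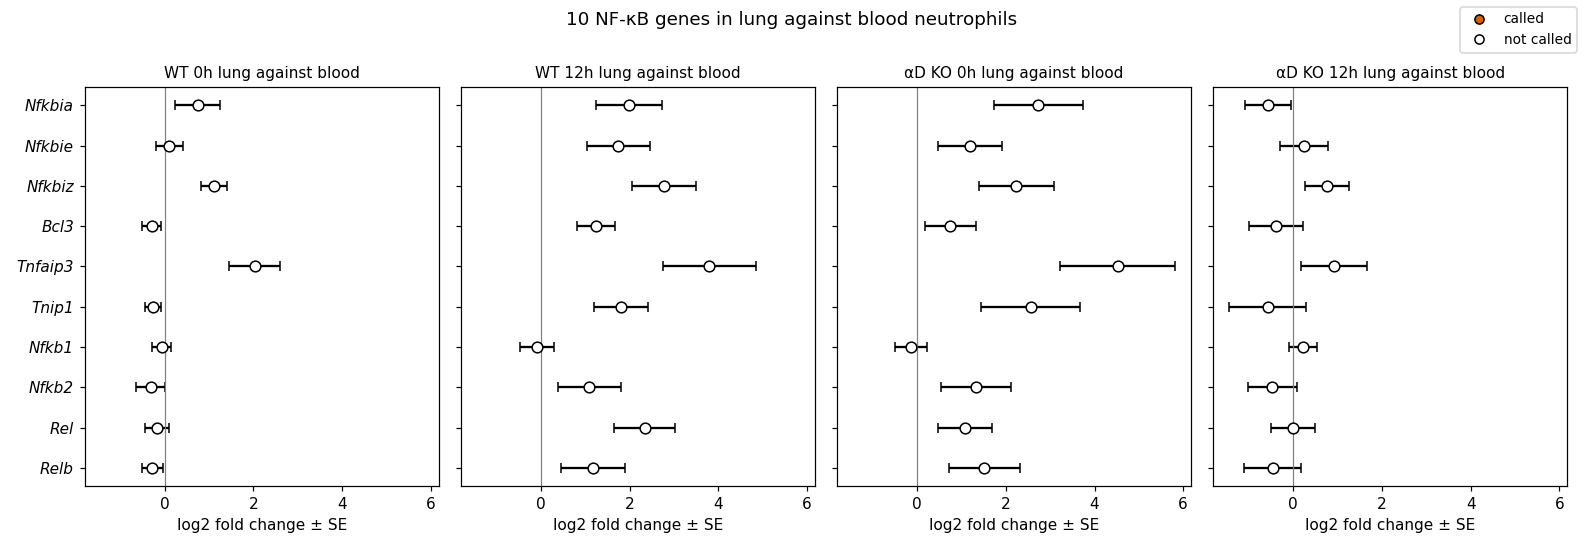
Log2 fold change of lung against blood neutrophils with its standard error, from edgeR, for each gene (rows) in the 4 groups of genotype and time (panels). No point is filled because no member was called. Tnfaip3 has the highest value in all 4 panels, at 2.03 and 3.79 in WT (0h and 12h) and 4.52 and 0.92 in αD KO.

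At 12h in WT, lung was above blood by a median of 1.78 log2 units over the members, against 0.03 over all genes. No member was called, with 0.0442% of 13590 genes called, while 7 members and 2454 genes had a p under 0.05 before adjustment. The number of members at such a p was 2, 9 and 3 without lung 12h library 1a, 1b or 2, beside 8.24%, 36.9% and 7.58% of genes. For blood 12h library 1a, 1b or 2 left out it was 7, 4 and 4, beside 6.68%, 17.2% and 8.25%. DESeq2 called 5 members (Nfkbia, Nfkbiz, Rel, Tnfaip3 and Tnip1) and 2.14% of genes. Library 1b of lung 12h lay inside or below the blood range for all members but was kept in these values. Without it 7 members were called, all but Nfkb1, Nfkb2 and Relb, with 10.6% of genes called higher. The log2 difference was then 4.33 (SE 0.50, adjusted p = 0.00271) for Tnfaip3, 3.25 (SE 0.32) for Nfkbiz and 2.81 (SE 0.37) for Rel. Rel was thus lower in WT blood at 12h than at 0h in value and higher in 2 of 3 lung libraries.

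At 12h in αD KO the median difference was −0.20, and 0 members and 0.0548% of 14592 genes were called. Before adjustment 0 members and 3240 genes (22.2%) had a p under 0.05. DESeq2 called 0 members and 3.03% of genes. Nfkbia was lower in each lung library than in any blood library, at 660, 1986 and 1912 CPM against 3100, 2082 and 2903 CPM, and 18.4% of genes were apart downward. Without library 1b of lung 12h, which lay at 0.821 on the axis, the 2 lung libraries left were those near 0h on it (0.0831 and 0.186). Then 3 members were called lower in lung, as were 4.81% of genes, and these were Tnip1 (log2 difference −2.69), Relb (−1.76) and Nfkb2 (−1.41). Without library 1a or 2 of lung 12h no member was called or had an unadjusted p under 0.05. Such a p was found for 11.5% and 15.4% of all genes there.

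The third question was whether the genotype labels differed. In blood at 0h, 0 members and 0.0115% of 17356 genes were called, in blood at 12h 0 members and 0% of 12596, in lung at 0h 0 members and 0% of 18232, and in lung at 12h 0 members and 0% of 16764. P-values under 0.05 before adjustment were found for 1 member in blood at 12h (Nfkbiz) and for 0 members in the others, beside 505, 123, 340 and 1390 genes in blood at 12h, blood at 0h, lung at 0h and lung at 12h. DESeq2 called 0 members in all 4, and 0.0118%, 0.0363%, 0.0163% and 0.361% of genes in blood 0h, blood 12h, lung 0h and lung 12h. In blood at 12h, 9 of the 10 values were higher under the αD KO label, with a median of 0.58 log2 units against 0.03 over all genes. Nfkbiz was the member whose libraries were apart, as 3.38% of genes were upward, and its log2 difference of 0.68 had an SE of 0.27 (adjusted p = 0.962).

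DESeq2 gave no adjusted p for Nfkbia, Tnfaip3 and Tnip1 in lung at 0h, for Nfkbia and Tnip1 in the tissue comparison of αD KO at 0h, or for Tnip1 in that at 12h and in the αD KO tissue by time term.

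In lung at 12h, 9 of the 10 members were lower under the αD KO label, with a median of −1.37 against 0.13 over all genes. The values ran from −2.34 (Tnfaip3, SE 1.22, adjusted p = 0.631) to 0.29 (Nfkb1, SE 0.41). No member's libraries were apart. Leaving out any 1 library called no member and 0% to 1.11% of genes. With libraries 1a and 2 alone, in which 1a and 2 of αD KO lie near 0h on the axis, 9 members were called lower, as were 14.9% of genes. Without library 1b of WT lung 12h the values ran from −2.95 to 0.08 and 9 members had an unadjusted p under 0.05 (smallest adjusted p = 0.0711), as had 31.1% of all genes, and without library 1b of αD KO lung 12h they ran from −3.84 to 0.39 and 5 members did (smallest adjusted p = 0.129), beside 13.9% of genes. Without library 1a or 2 of αD KO lung 12h 0 members did, beside 1.47% and 1.94% of genes. In lung at 0h all 10 values were higher under the αD KO label, with a median of 1.19, and without library 2 of αD KO they lay between −0.79 and 0.08, with 9 of 10 below 0. These directions follow the labels, against which Itgad went.

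**Figure D5:**
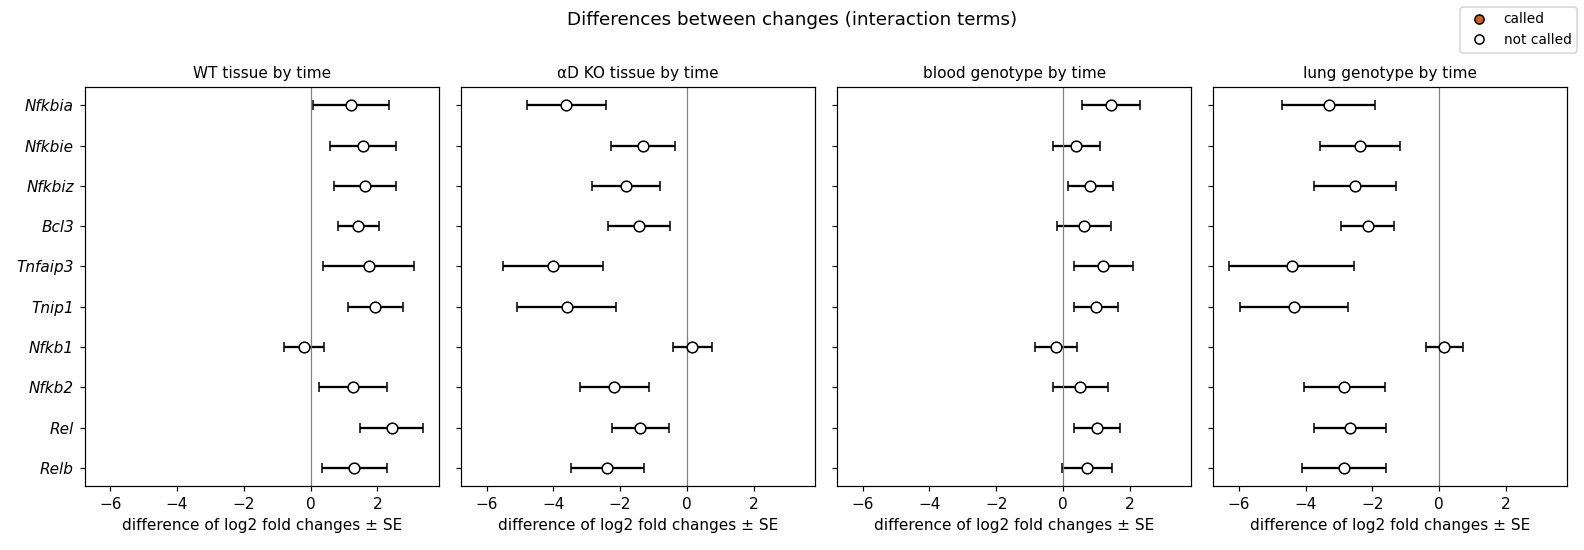
Interaction terms with their standard errors, from edgeR. Tissue by time is the change from 0h to 12h in lung minus that in blood, and genotype by time is the change in αD KO minus that in WT. No point is filled because no member was called. The 2 panels with αD KO lung lie below 0 for 9 of 10 genes.

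Interaction terms compared the changes themselves. In WT the change in lung exceeded that in blood by a median of 1.496 log2 units over the members (0.56 over all genes), 0 members and 0% of 23497 genes were called, and 3 members and 1290 genes had an unadjusted p under 0.05. Those 3 were Rel (2.43, SE 0.93), Tnip1 (1.94, SE 0.83) and Bcl3 (1.43, SE 0.62). With 1 library left out the number of members at such a p was 0 to 6. It was 6 without lung 12h 1b (10.5% of genes). It was 0 without lung 12h 1a (2.51%), lung 0h 1b (11.1%) or blood 0h 1a (4%). Without library 1b of WT lung 12h, Rel was called (2.91, SE 0.55, adjusted p = 0.0462), with 0.68% of genes called in either direction. In αD KO the median was −1.99 (0.44 over all genes), 0 members and 0% of 22218 genes were called, and 4 members and 2352 genes had an unadjusted p under 0.05. Without library 2 of αD KO lung 0h the 10 terms lay between −1.33 and 0.62 and 0 members had an unadjusted p under 0.05, beside 4.28% of all genes. The number of members was 6 without library 1b of αD KO lung 12h (−5.41 to 0.38, with 12% of all genes) and 2 without library 1a (5.59%) or library 2 (6.65%). No member was called in any of these. With RLE in place of TMM scaling the medians over all genes moved by 0.17 in WT and 0.21 in αD KO. The changes in blood did not differ detectably between genotypes, with a median of 0.77, 0 members and 0% of 19792 genes called, and 0 members and 232 genes at an unadjusted p under 0.05.

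In lung the change under the αD KO label was below that in WT by a median of 2.76 log2 units (−2.76, against −0.19 over all genes). No member and 0% of 23211 genes were called, and 7 members and 2432 genes had an unadjusted p under 0.05. The estimates ran from −4.41 (Tnfaip3, SE 1.87, adjusted p = 0.442) to 0.16 (Nfkb1, SE 0.55). Without library 2 of αD KO lung 0h they ran from −1.76 to 0.50, and 0 members had a p under 0.05 before adjustment, beside 4.52% of all genes. Without library 1b of WT lung 12h they ran from −5.00 to −0.06, and without library 1b of αD KO lung 12h from −6.23 to 0.37, with 9 members at such a p in each, beside 14.5% and 13.4% of all genes. Without library 1a or 2 of αD KO lung 12h 1 and 2 members had such a p, with 5.24% and 5.9% of genes. No member was called in any of these 5 alternatives. With the replicate block 1 member and 11.6% of genes had an unadjusted p under 0.05, and with 10 counts in every library 4 members and 19.8%. No filter, all 8 groups in 1 fit and summed files each gave 9 members (6.16%, 11.1% and 13.2% of genes). DESeq2 called 0 members in all 4 interaction terms, beside 0.22% of genes for WT tissue by time, 0.588% for αD KO tissue by time, 0.00232% for blood genotype by time and 0.71% for lung genotype by time.

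The genes with a pattern most like that of Nfkbia over the 24 libraries, among 6627 genes with a mean of at least 10 CPM and outside the members, were Fth1 (ferritin heavy chain), Birc3 (the inhibitor of apoptosis cIAP2), Cd14, Mxd1 (a partner of MAX) and Atp6v0c (a subunit of the proton pump of vesicles). Pearson's r of log2 CPM was 0.969 for Fth1, 0.953 for Birc3, 0.950 for Cd14, 0.949 for Mxd1 and 0.949 for Atp6v0c, and Spearman's rho was 0.945, 0.948, 0.944, 0.896 and 0.919. For Nfkb1 they were R3hcc1l, Celf1, Ogfr, Stam2 and Golgb1, with r of 0.871 to 0.892. These are descriptions over libraries that share depth, scaling and the difference between times, with no test. Among the other members, r with Nfkbia was lowest for Nfkb1 (0.611) and Rel (0.708) and 0.850 to 0.927 for the rest. Within the 12 blood libraries Rel had an r of 0.357 with Nfkbia and within the 12 lung libraries 0.880.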

How the data were processed

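RNA of sorted neutrophils from 16 samples (24 count files) was measured. The authors trimmed reads with Trimmomatic 0.36, aligned them with STAR 2.5.2b to GRCm38 (versions and build per the labels) and counted unique reads within exons. The deposited counts are raw, per gene, 1 file per library. Whether strand was used in counting is not given in the sources used here. Reads of Nfkb2, Tnip1 and Bcl3 thus cannot be told from those of genes annotated across them on the other strand. The gene annotated across Nfkb1 lies on the same strand, where strand would not separate them. Libraries 1a and 1b differed by more than sampling noise (chi-square per degree of freedom 89.4 to 565, against 53.4 to 451 between 1a and 2) and were kept as 2 libraries, which does not show whether they are separate mice.

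Tests used edgeR 4.0.16 in R 4.3.3 (TMM factors, filterByExpr, quasi-likelihood F test, two-sided, only the groups compared, Benjamini-Hochberg over all genes). A call needed an adjusted p under 0.05 and, except for interaction terms, a log2 fold change beyond 1 in either direction. DESeq2, the tool of the authors, was an alternative (version 1.42.0 here). Others were RLE factors, no filter or 10 counts in every library, all 8 groups in 1 fit, summed files of sample 1, libraries 1a and 2 alone, the library number as a block, and each library left out. CPM used 1 TMM scale over the 24 libraries. Same-numbered libraries deviated together (every r above 0.1) in 10 of 12 comparisons of 2 groups, so the block is given where it changed a call. The r of library 1b was the highest in each comparison (0.45 to 0.828), and that of library 1a was 8.89e-05 to 0.569. In most comparisons library 1a was not most like its own number, so the numbers are not shown to be matched. The number comes from sample and file numbering, not from a stated pairing. Depth was 5753476 to 29984954 counts per library, and intervals of counting cover no more than counting error.

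The members and lists were chosen with earlier results of these data known. Named were the 10 members, up to 12 called pathway genes with the largest fold change in each comparison of times, the 5 genes most correlated with Nfkbia and with Nfkb1, and Itgad. Called genes among the other subunits and inhibitors, and pathway genes whose call changed with the block, were named outside this rule, after their values were seen. Promoter windows came from RefSeq (GRCm38.p6).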

Additional observations from a re-analysis of the deposited data

How the results depend on the processing

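Of 570 alternatives for single members in the 4 comparisons of times, 448 kept direction and side of the threshold, 38 passed it anew, 40 lost it and 44 turned direction, 34 of them in αD KO lung. Percentages in brackets are shares of all genes called in the same setting, in the direction of the members. The number of members called in WT blood (1) was 0 with no filter (1.37%) or all 8 groups in 1 fit (2.84%). It was 2 with 10 counts in every library (11.5%) and 0 to 1 with a library left out (0.00999% to 9.28%). DESeq2 (3.72%), summed files (9.76%), libraries 1a and 2 alone (11%) and the replicate block (10.2%) each gave 4. In αD KO blood (5) the number was 0 with all 8 groups in 1 fit (0.0442%) and 2 to 5 with a library left out (0.142% to 4.42%). It was 6 with no filter (1.71%), DESeq2 (2.62%) or the replicate block (4.66%). In WT lung (4) it was 2 with all 8 groups (0.906%), 5 with 10 counts in every library (7.82%), 6 with no filter (1.58%) and 8 with DESeq2 (3.24%). It was 9 with summed files (6.26%) or libraries 1a and 2 alone (18.5%) and 3 with the replicate block (3.54%). Leaving out a library gave 0 to 9 (0% to 12.5%). For lung against blood (0 in all) DESeq2 called 1 in WT 0h (0.0592%), 5 in WT 12h (1.69%) and 1 in αD KO 0h (0.161%), no filter gave 3 in WT 12h (1.31%) and 1 in αD KO 0h (0.0903%), and summed files gave 5 in WT 12h (2.8%). Libraries 1a and 2 alone gave 7 in WT 12h (15.6%), 3 in αD KO 12h (13.9%), 9 in the genotype comparison of lung 12h (14.9%) and, with shares in either direction, 5 for WT tissue by time (7.41%) and 9 for lung genotype by time (13.2%). With a library left out, the range was 0 to 7 in WT 12h (0% to 10.6%), 0 to 3 in αD KO 12h (0% to 4.81%) and 0 to 1 for WT tissue by time (0% to 0.68%). The replicate block changed the count of members in none of the other 13 comparisons.

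In αD KO blood the Nfkb1 log2 fold change (−0.02) was 0.043 with RLE, 0.063 with no filter, 0.069 with DESeq2, 0.19 with all 8 groups, 0.065 with summed files and −0.088 to 0.27 with a library left out, and Rel (0.15) was −0.016 with 10 counts in every library and −0.16 to 0.53. In WT lung Nfkb1 (0.31) was −0.17 to 0.51. For αD KO lung the replicate block turned Nfkbia (0.33), Nfkbiz (0.43), Nfkbie (0.13), Nfkb2 (0.16), Tnfaip3 (0.15) and Tnip1 (0.20) above 0, and 10 counts in every library turned Nfkbiz (0.052). Relb went below 0 with no filter (−0.039) or all 8 groups (−0.058), and Relb and Bcl3 did with summed files (−0.62 and −0.26) and libraries 1a and 2 alone (−1.49 and −0.72). Without library 2 of 0h and library 1a of 12h together, values were 2.06 for Nfkbia, 1.77 for Nfkbiz, 1.52 for Nfkbie, 1.66 for Nfkb2, 0.26 for Rel, 2.22 for Tnfaip3 and 2.72 for Tnip1. With 1 library left out, Nfkbia was −1.10 to 1.70, Nfkbiz −0.71 to 1.48, Nfkbie −0.94 to 1.21, Nfkb2 −1.11 to 1.35, Rel −1.37 to 0.19, Relb −1.03 to 1.82, Tnfaip3 −2.35 to 1.80, Tnip1 −2.37 to 2.26 and Bcl3 −0.33 to 1.05. The cause was not tested. In lung genotype by time, leaving out library 2 of αD KO lung 0h and library 1b of WT lung 12h, chosen after seeing the data, gave −2.25 to 0.28 and called 0 members (smallest adjusted p = 0.208). With 3 libraries a group and some that stand apart, small differences were not detectable.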

Other observations

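Ratios within a library do not depend on scaling between libraries. The pairs below were chosen after their values were seen, and no test was run. The level per length of Rel over that of Relb was 1.33, 1.17 and 1.57 in WT blood at 0h and 0.184, 0.500 and 0.425 at 12h (libraries 1a, 1b and 2). In αD KO blood it was 1.496, 1.31 and 1.44 at 0h and 0.574, 0.161 and 0.380 at 12h. In WT lung it was 1.38, 1.19 and 1.82 and then 0.638, 0.395 and 0.738. Every 12h library of these 3 groups was below every 0h library, library 1b of WT lung 12h included. The ratio lay above 1 at 0h and below 1 at 12h. Lengths are those of all annotated exons, not of the transcripts expressed, so which transcript was more numerous cannot be told. In αD KO lung the ratio was 1.65, 1.53 and 0.896 at 0h and 1.18, 0.355 and 0.632 at 12h, where library 2 of 0h was under 1 and library 1a of 12h above 1.

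The level per length of Nfkbia over that of Nfkb1 was 97.3, 33.6 and 66.1 in WT blood at 0h and 167, 169 and 147 at 12h. In αD KO blood it was 54.3, 40.5 and 27.1 and then 291, 260 and 265. In WT lung it was 92.996, 153 and 123 at 0h and 638, 151 and 1252 at 12h, with library 1b of 12h inside the 0h range. In αD KO lung it was 75.7, 91.7 and 496 at 0h and 69.7, 299 and 130 at 12h.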
